A study of Mus musculus with 3 samples.

Results

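The genes described here encode the CD3 chains of the T cell receptor (Cd3d, Cd3e, Cd3g and Cd247), the co-receptors CD4 and CD8 (Cd4, Cd8a and Cd8b1), the kinases Lck and Zap70, and the receptor of interleukin 7 (Il7r). They were chosen by name from the symbol column of the deposited tables. All 10 were found, of 17250 gene names in all, and each had a single row. The RNA came from unsorted BM cells of male C57BL/6 mice aged 6 to 8 weeks, washed out of the femur, tibia, pelvis and humerus. Recombinant LECT2, produced in Chinese hamster ovary cells, was given subcutaneously at 300 μg per kg each day for 3 or 5 days, and the 0-day sample had 0 days of treatment. The number of mice behind each library is not given in the sources used here. Each time point had 1 library, so no difference between them has a replicate check and no p-value is given.

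T cells recognize peptides on MHC molecules through a receptor whose variable chains have almost no signalling tail of their own. The CD3 gamma, delta and epsilon chains and the zeta chain, which Cd247 encodes, carry the tyrosine motifs that pass the signal on. CD4 and CD8 bind MHC class II and class I and bring the kinase Lck to these motifs, and ZAP-70 then docks on the phosphorylated tyrosines. The IL-7 receptor alpha chain keeps naive T cells alive, and it is also needed by B cell precursors, which are abundant in mouse BM. BM holds a small pool of mature, mostly recirculating T cells. NK cells share Cd247, Lck and Zap70 with T cells, and some dendritic cells carry CD4 or CD8 alpha.

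Cd3g, Cd3d and Cd3e stand side by side on chromosome 9 (GRCm38, GENCODE M21). Cd3g runs from 44969572 to 44980431 on the minus strand and Cd3d from 44981786 to 44987339 on the plus strand, so that the starts of the genes face away from each other across 1354 bases. Cd3e follows on the minus strand from 44998740 to 45009627. Cd247 lies on chromosome 1 from 165788681 to 165877277. Cd8b1 (71322788 to 71337494) and Cd8a (71373427 to 71379173) are neighbours on the plus strand of chromosome 6, with no other coding gene between them. Cd4 is on the same chromosome from 124864692 to 124888221, Lck on chromosome 4 from 129548344 to 129573641, Zap70 on chromosome 1 from 36761798 to 36782818 and Il7r on chromosome 15 from 9505788 to 9530176. The labels list mm8 as the genome build, and these positions are those of GRCm38, not of the deposited tables.

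The 250 bases before the RefSeq start of Cd3d, Cd3g and Cd3e are shown because these 3 genes share a cluster and had the lowest 3-day ratios of the 10. They are RefSeq sequences of GRCm38.p6 in the direction of transcription, from chr9:44981536-44981785 (plus strand), chr9:44980432-44980681 (minus strand) and chr9:45009612-45009861 (minus strand). The RefSeq start of Cd3e lies inside the GENCODE gene given above, so the last bases of its window belong to that gene. Of the 10 genes, 8 matched an entry of the promoter table. Capitals mark GGAAG on either strand, letters that hold the GGAA core bound by Ets factors.
Cd3d: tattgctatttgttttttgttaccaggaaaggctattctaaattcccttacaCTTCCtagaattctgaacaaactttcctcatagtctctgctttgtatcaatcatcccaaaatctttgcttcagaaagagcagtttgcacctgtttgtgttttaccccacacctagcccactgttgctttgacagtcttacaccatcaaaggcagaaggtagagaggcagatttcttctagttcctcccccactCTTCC
Cd3g: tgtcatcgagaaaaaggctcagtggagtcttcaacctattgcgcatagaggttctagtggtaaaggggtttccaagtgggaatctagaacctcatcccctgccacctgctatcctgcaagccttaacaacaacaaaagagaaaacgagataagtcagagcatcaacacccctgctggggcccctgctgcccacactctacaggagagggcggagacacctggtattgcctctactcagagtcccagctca
Cd3e: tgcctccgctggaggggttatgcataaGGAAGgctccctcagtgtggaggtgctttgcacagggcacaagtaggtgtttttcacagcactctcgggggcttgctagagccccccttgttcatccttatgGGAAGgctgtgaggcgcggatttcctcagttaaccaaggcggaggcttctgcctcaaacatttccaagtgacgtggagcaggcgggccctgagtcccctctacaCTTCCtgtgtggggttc
GGAAG occurred at 2 positions before Cd3d, at 3 before Cd3e and at none before Cd3g, while 64.1% of 32851 promoter windows of this length held it. A Runx core, TGTGGT, was searched on both strands in the same way and was in 14.0% of all windows. The E-box CAGCTG was in 13.0% of them. The TATA box letters TATAAA were in 12.4%. None of these 3 motifs was in the windows shown, so no capitals overlap another motif.

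Reads assigned to genes numbered 15523952 before treatment, 15146983 on day 3 and 15514673 on day 5. RPKM divides the reads of a gene by its length and by the library total, and 1 read on 1000 bases was worth 0.0644 to 0.0660 RPKM. The 10 genes took 0.0267%, 0.0238% and 0.0304% of the reads. Each had between 53 and 2544 reads in a library, and at least 1 RPKM in all of them. Changes are log2 ratios of RPKM + 0.1, followed in brackets by the 95% exact (Clopper-Pearson) interval of the log2 ratio of read counts. These intervals cover counting error only, since reads of amplified libraries that carry no molecular identifiers do not each stand for a molecule.
The library totals bear on each ratio. The median log2 ratio of the 11144 genes that averaged 1 RPKM or more was 0.10 on day 3 and 0.31 on day 5, and TMM scaling, which rests on the genes that change least, brought it to 0.02 and 0.01. This shift differed with gene length. At 5 days the median was −0.09 over genes of 1000 to 1500 bases and 0.33 over genes of 2000 to 3300 bases. Each 5-day value below should therefore be read against genes of like length. In unsorted marrow, fewer T cells and less RNA per T cell cannot be told apart.

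**Figure D1:**
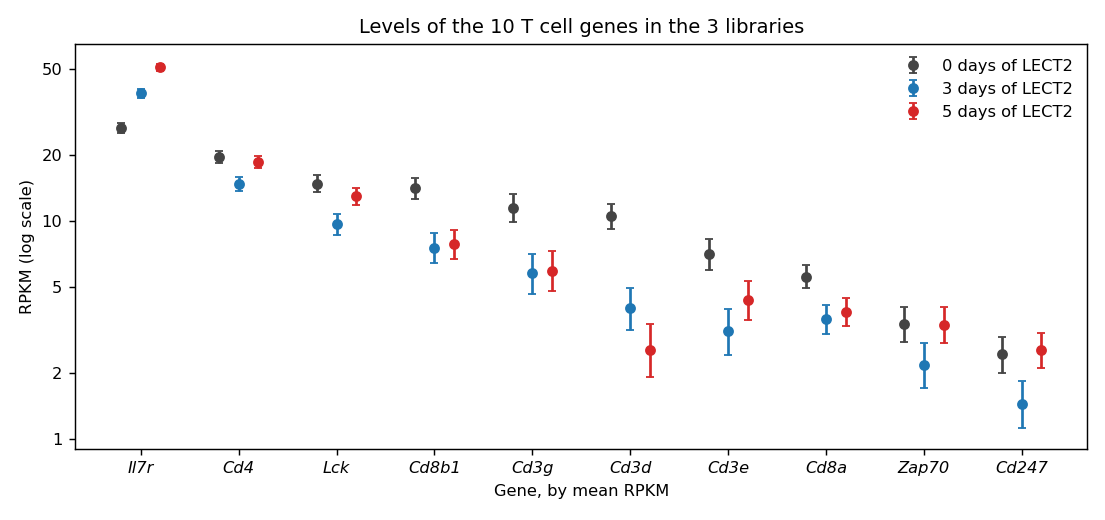
RPKM (log axis) of the 10 T cell genes at 0, 3 and 5 days of LECT2, 1 library per time point, with bars for the exact 95% Poisson interval of the read count. Il7r climbed from 26.6 to 50.8 RPKM, while the other 9 genes were lowest at 3 days except Cd3d, which was lowest at 5 days.

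The CD3 chains were lower at 3 days, and among them Cd3d was lower still at 5 days. Cd3d, the delta chain, had 217 reads before treatment, 80 on day 3 and 53 on day 5, or 10.5, 3.97 and 2.57 RPKM. Its log2 ratio against 0 days was −1.38 (−1.79 to −1.03) at 3 days and −1.99 (−2.49 to −1.59) at 5 days. Without the pseudocount, the 5-day RPKM was 24.4% of the 0-day RPKM. It was the lowest of the 10 genes by this ratio at both times, and on the deposited scale the only one below 0 from 3 to 5 days, at −0.61 (−1.16 to −0.11). Under TMM scaling 4 of the 10 were below 0 in that comparison, and Cd3d was then −0.83 (−1.38 to −0.33).
Cd3e, the epsilon chain that pairs with both delta and gamma, was counted with 157, 68 and 97 reads, or 7.04, 3.13 and 4.35 RPKM. It was −1.15 (−1.60 to −0.75) at 3 days and −0.68 (−1.07 to −0.32) at 5 days. From 3 to 5 days it was 0.47 (0.02 to 0.95), but under TMM scaling 0.25 (−0.21 to 0.72), an interval that held 0. Cd3g, the gamma chain, had 182, 89 and 94 reads, or 11.5, 5.74 and 5.92 RPKM. It stayed at the lower level, with −0.98 (−1.38 to −0.62) at 3 days and −0.94 (−1.33 to −0.59) at 5 days. Cd247, whose zeta chain NK cells share, had 112, 65 and 117 reads, or 2.44, 1.45 and 2.55 RPKM. Its log2 ratio was −0.71 (−1.21 to −0.30) at 3 days and 0.06 (−0.32 to 0.45) at 5 days, and under TMM scaling the 5-day value was −0.23, with an interval that still held 0. CPM values, unlike RPKM, divide by the library total only. The 4 chains together had 43.0 CPM at 0 days (exact Poisson 95% interval 39.8 to 46.4), 19.9 (17.8 to 22.3) at 3 days and 23.3 (20.9 to 25.8) at 5 days. After TMM scaling these sums were 47.1, 20.6 and 20.6.

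Both CD8 genes were lower at 3 and at 5 days, whereas Cd4 on the deposited scale was lower at 3 days and close to its first level at 5 days. Cd8b1, the beta chain found on conventional cytotoxic T cells, had 311, 162 and 172 reads, or 14.1, 7.55 and 7.83 RPKM. Its log2 ratios were −0.90 (−1.19 to −0.63) and −0.85 (−1.13 to −0.58). Cd8a, the alpha chain, had 270, 168 and 186 reads, or 5.56, 3.54 and 3.83 RPKM, with log2 ratios of −0.63 (−0.94 to −0.37) and −0.53 (−0.81 to −0.26). Between 3 and 5 days the interval of either gene held 0.
Cd4 was counted with 945, 696 and 898 reads, or 19.7, 14.8 and 18.7 RPKM. It was −0.40 (−0.55 to −0.26) at 3 days and −0.07 (−0.21 to 0.06) at 5 days. Its 5-day value depends on the scale, being −0.38 (−0.51 to −0.25) under TMM scaling.

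Both kinases were lower at 3 days, and their 5-day values depended on the scale. Lck, the Src family kinase that phosphorylates the CD3 tails, had 501, 317 and 437 reads, or 14.9, 9.64 and 13.0 RPKM. Its log2 ratio was −0.62 (−0.83 to −0.42) at 3 days and −0.19 (−0.38 to −0.01) at 5 days. Zap70, which binds the phosphorylated tails, had 114, 72 and 113 reads, or 3.37, 2.18 and 3.34 RPKM. It was −0.61 (−1.07 to −0.19) at 3 days and −0.01 (−0.40 to 0.38) at 5 days. Under TMM scaling the 5-day ratios were −0.50 (−0.69 to −0.32) for Lck and −0.31 (−0.71 to 0.07) for Zap70. From 3 to 5 days the ratio was 0.42 (0.22 to 0.64) for Lck and 0.59 (0.18 to 1.06) for Zap70, while the median of all genes was 0.25. Under TMM scaling both intervals of this last comparison held 0.

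Il7r moved the other way. It was counted with 1335, 1887 and 2544 reads in the 0-, 3- and 5-day libraries, or 26.6, 38.6 and 50.8 RPKM, and was the most abundant of the 10 genes in every library. Its log2 ratio was 0.53 (0.43 to 0.64) at 3 days and 0.93 (0.83 to 1.03) at 5 days. Against all genes its level moved from percentile 82.2 to 87.0 and 89.7, while that of Cd3d moved from 65.5 to 46.4 and 39.3. Under TMM scaling the ratios of Il7r were 0.45 and 0.62, and with the length trend described below removed they were 0.33 and 0.46. Il7r made up 32.2% of the reads of the 10 genes at 0 days (exact binomial 95% interval 30.8 to 33.7), 52.4% (50.7 to 54.0) at 3 days and 54.0% (52.6 to 55.4) at 5 days. The sum of the 10 genes, 267, 238 and 304 CPM, therefore hides the other 9, which together had 181, 113 and 140 CPM.

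**Figure D2:**
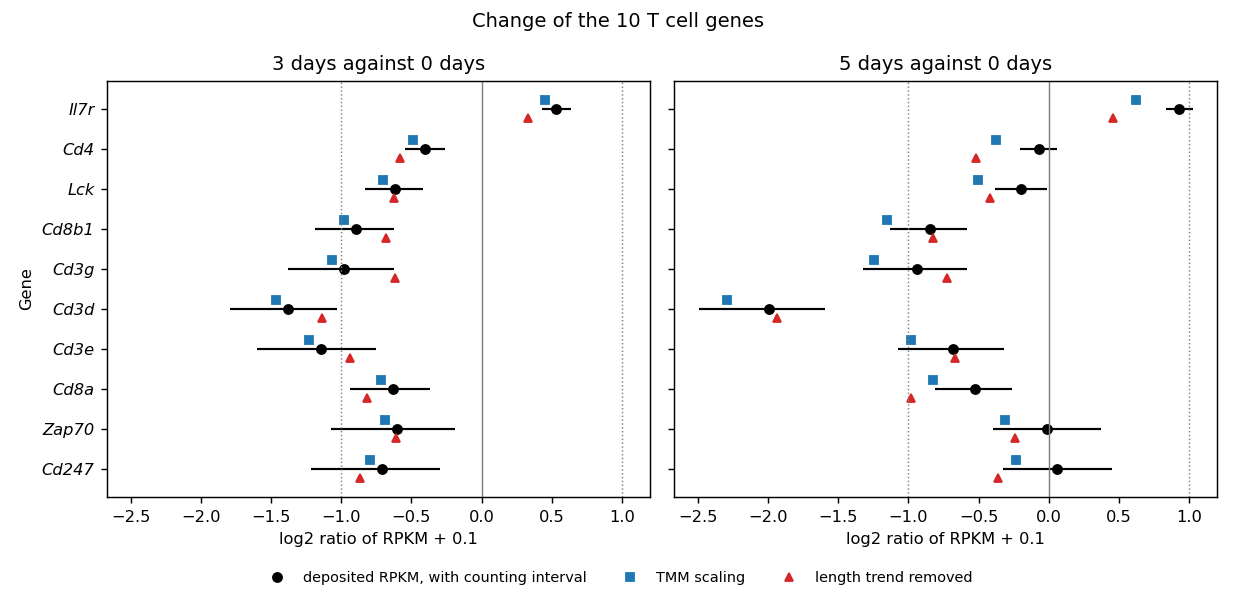
Log2 ratios of RPKM + 0.1 at 3 days (left) and 5 days (right) against 0 days for the 10 genes. Black points are the deposited values with their 95% counting intervals, blue squares use TMM scaling and red triangles have the gene length trend removed, and dotted lines mark a 2-fold change. At 3 days 9 of the 10 genes lie left of 0 on each of the 3 scales, with Il7r to the right.

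The median of the 10 genes lay 0.77 below that of all genes on day 3, at −0.67, and 0.67 below it on day 5, at −0.36. At 3 days 2 of them, Cd3d and Cd3e, were at least 2-fold lower, as were 2.41% of the 11325 genes with at least 1 RPKM in either library. None was at least 2-fold higher, against 4.08% of all genes. Cd3g missed the 2-fold limit narrowly. With TMM scaling the 462 higher and 273 lower genes became 352 and 356, and Cd3g joined the lower ones. The counting interval lay below 0 for 9 of the 10 genes, compared with 26.2% of all genes, and above 0 for Il7r alone, compared with 41.1%. At 5 days 1 gene, Cd3d, was at least 2-fold lower (5.91% of 11497 genes) and none was 2-fold higher (15.5%). The interval lay below 0 for 6 genes (22.3% of all genes) and above 0 for Il7r alone (55.1%). TMM scaling turned the 1786 higher and 680 lower genes of that comparison into 832 and 1141, and then 3 of the 10, Cd3d, Cd3g and Cd8b1, were at least 2-fold lower.
Between 3 and 5 days, a comparison that leaves out the 0-day library, the median of the 10 genes was 0.36 and that of all genes 0.25. None was changed 2-fold (1.95% of 11375 genes were higher and 3.45% lower). These 222 and 393 genes became 74 and 549 with TMM scaling. The interval lay above 0 for 6 of the 10, a share close to the 54.4% of all genes, and below 0 for Cd3d alone (15.3%). Under TMM scaling it lay above 0 for 2 only, Cd247 and Il7r, while those of Cd3e, Cd4, Lck and Zap70 held 0. The 3-day and 5-day ratios share the 0-day library and are not independent of each other.

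Gene length moved with these values. In these libraries the ratio against 0 days rose with the length of the gene, from a median of −0.55 at 3 days in the shortest of 20 classes of genes to 0.62 in the longest. Cd3d, Cd3e, Cd3g and Cd8b1 are short, with 1330, 1436, 1023 and 1416 bases in the tables, and the other 6 have 2171 to 3227 bases. The 4 short genes had medians of −1.07 (day 3) and −0.89 (day 5). Over 1225 genes of 1000 to 1500 bases the medians were −0.28 and −0.09, and 3.59% and 8.57% of those genes were at least 2-fold lower. The 6 longer genes had medians of −0.61 and −0.04, and 3313 genes of 2000 to 3300 bases had 0.09 and 0.33. With a smooth trend on length removed, the medians of the 10 genes were −0.66 and −0.59, and 9 of the 10 were below 0 at either time, all but Il7r. Cd3d was then −1.14 and −1.94, Cd3e −0.94 and −0.67, and Cd8a −0.82 and −0.98. Cd4, Lck, Zap70 and Cd247, whose deposited 5-day ratios were the closest to 0, were then −0.52, −0.42, −0.24 and −0.36. The part of length in the deposited ratios of single genes was not tested.

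**Figure D3:**
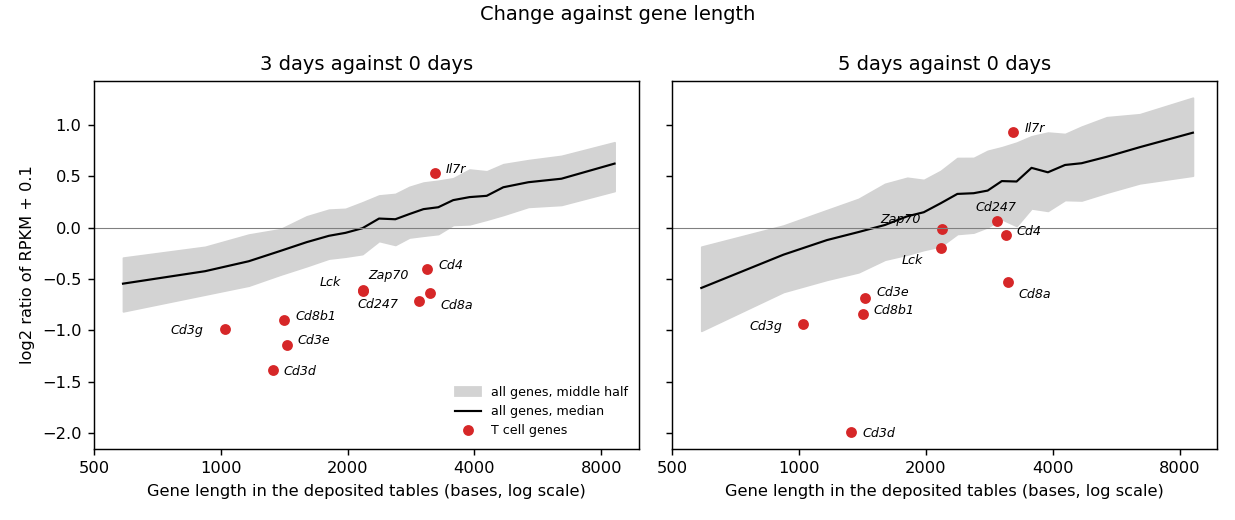
Log2 ratio of RPKM + 0.1 at 3 days (left) and 5 days (right) against 0 days, by gene length in bases on a log axis. The black line and grey band are the median and the range from the lower to the upper quartile of all genes averaging 1 RPKM or more in 20 classes of length, and red points are the T cell genes. Cd3d lies far below genes of its own length in both panels, and Il7r lies above them.

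Ratios between these genes within a library do not depend on how the library is scaled. Cd3d and Cd3e have nearly the same length, and the RPKM of Cd3d was 1.49 times that of Cd3e at 0 days (95% interval 1.21 to 1.84), 1.27 (0.908 to 1.78) at 3 days and 0.590 (0.414 to 0.833) at 5 days. The order of the delta and epsilon transcripts was thus reversed in the 5-day library, beyond counting error. Cd3g to Cd3e gave 1.63 (1.31 to 2.03), 1.84 (1.32 to 2.56) and 1.36 (1.01 to 1.83), with overlapping intervals. Cd247 to Cd3e, genes that differ in length, gave 0.346 (0.269 to 0.444), 0.464 (0.325 to 0.662) and 0.586 (0.444 to 0.775), and the outer intervals touched.
Cd4 and Cd8a also match in length. Their ratio was 3.54 (3.09 to 4.07) at 0 days, 4.19 (3.54 to 4.99) at 3 days and 4.88 (4.16 to 5.75) at 5 days, and the first and last intervals did not overlap. Cd8b1 to Cd8a was 2.55 (2.16 to 3.01), 2.13 (1.71 to 2.66) and 2.04 (1.65 to 2.53), and Zap70 to Lck was 0.227 (0.183 to 0.278), 0.226 (0.173 to 0.293) and 0.258 (0.208 to 0.317). Intervals of these last pairs overlapped across the libraries.

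**Figure D4:**
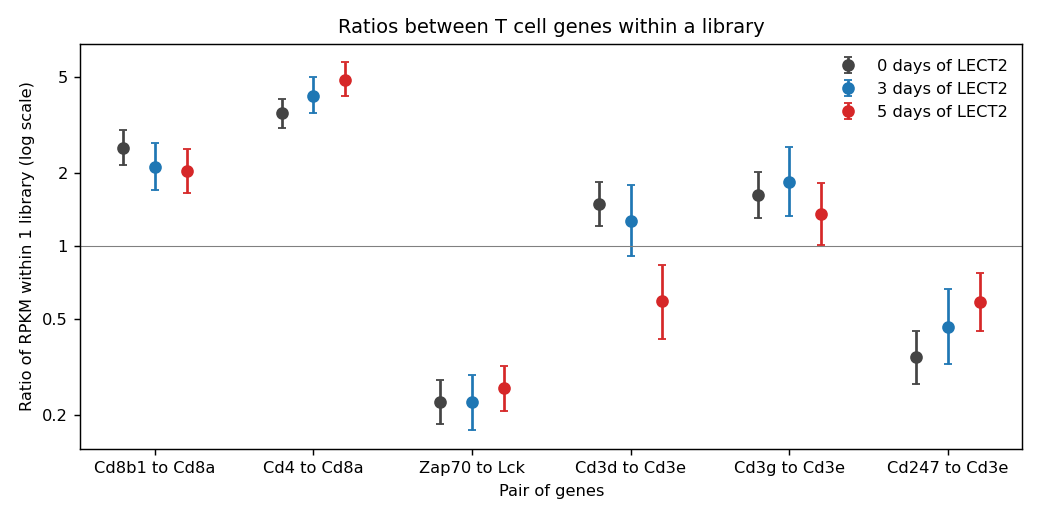
Ratio of the RPKM of 2 genes within 1 library (log axis) for 6 pairs at 0, 3 and 5 days, with 95% Clopper-Pearson intervals from the counts. The ratio of Cd3d to Cd3e lies above 1 at 0 days and below 1 at 5 days, and that of Cd4 to Cd8a is 3.54, 4.19 and 4.88.

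By level per length, the order at 0 days was Il7r, Cd4, Lck, Cd8b1, Cd3g, Cd3d, Cd3e, Cd8a, Zap70 and Cd247. Lck and Cd8b1 did not differ beyond counting error, nor did Cd3g and Cd3d. At 3 days Cd3d, Cd8a and Cd3e could not be ordered by neighbouring pairs. At 5 days the order below Cd3g was Cd3e, Cd8a, Zap70, Cd3d and Cd247, and no neighbours among these 5 differed beyond counting error.
Among genes averaging 5 RPKM or more, those whose 2 ratios against 0 days came nearest to the medians of the CD3 chains (−1.07 and −0.81) were Rpl36a, a ribosomal protein gene, Lat and Nme1, a nucleoside diphosphate kinase gene. The distance was 0.009, 0.013 and 0.063 on the log2 scale over the 3 libraries. Of 8179 genes, 343 lay within 0.5, so nearness by this measure is common.

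Among 22 other surface genes of T cells, of which 20 reached 1 RPKM in either library, on day 3 the limit of 2-fold was passed by 3 that were lower and 0 higher. These were Cd28, the main costimulatory receptor, Icos, its relative on activated and follicular helper T cells, and Ctla4, the inhibitory receptor abundant in regulatory T cells. They are neighbours on chromosome 1, separated by 113640 and 62094 bases with no coding gene in between. Cd28 went from 5.01 RPKM to 1.77 and 2.02, with log2 ratios of −1.45 (−1.82 to −1.19) and −1.27 (−1.61 to −1.02). Ctla4 went from 8.04 to 2.70 and 2.84 RPKM, at −1.54 (−1.96 to −1.20) and −1.47 (−1.88 to −1.14). Icos went from 3.23 to 0.969 and 1.06 RPKM, at −1.64 (−2.23 to −1.27) and −1.52 (−2.07 to −1.15). Cd28 and Icos are long, with 4317 and 3272 bases, and with the length trend removed they stood at −1.78 and −1.85 at 3 days. The 3-day ratios of all 3 were below that of Cd3d, the lowest of the 10 genes, but their counting intervals overlapped with its own.
Over all genes the shares were 2.41% lower and 4.08% higher. At 5 days 5 of the 20 were at least 2-fold lower (5.91% of all genes). Among them were the TNF receptor family genes Tnfrsf18 (−1.21, and −0.98 with the length trend removed) and Tnfrsf9 (−1.05, interval −1.95 to −0.40). Tnfrsf9 had 49, 27 and 22 reads and was above 1 RPKM at 0 days only. The 1 gene that was higher (15.5% of all genes) was Ly6c1 (1.42), whose reads may be shared with its near copy Ly6c2, an abundant monocyte gene. The most abundant of the list, Cd2, Cd7 and Btla, had 68.2, 46.6 and 33.5 RPKM at 0 days. Their 3-day ratios were −0.73, −0.56 and 0.20.

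**Figure D5:**
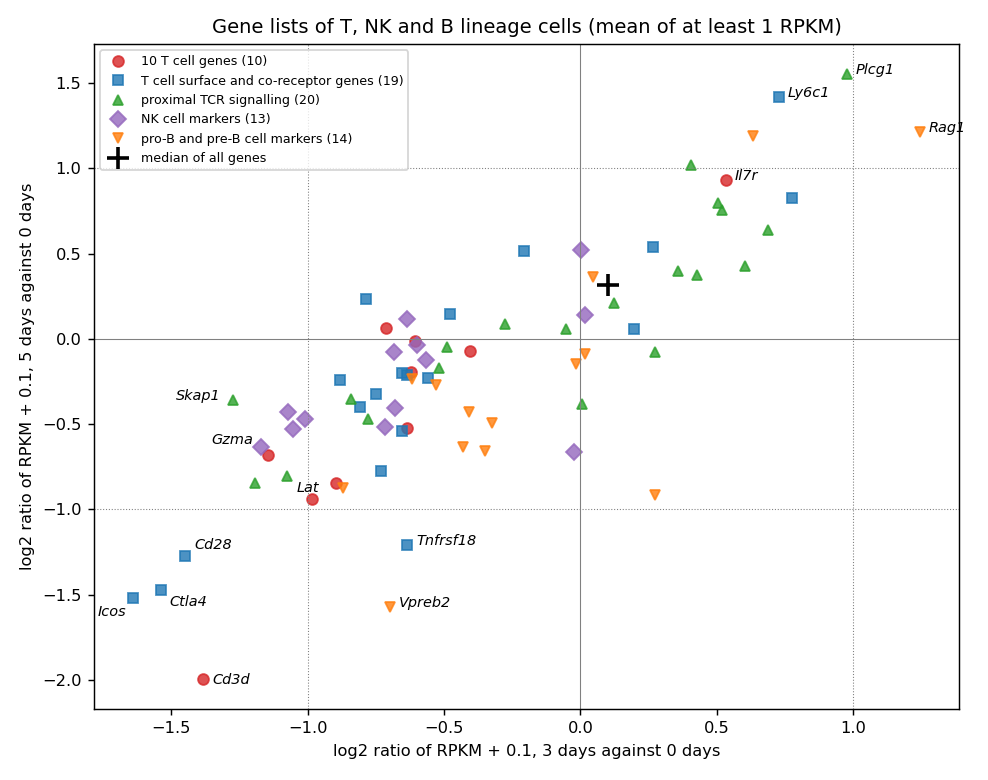
Log2 ratio of RPKM + 0.1 at 5 days against that at 3 days, both relative to the same 0-day library, for genes averaging 1 RPKM or more. Symbols mark the 10 T cell genes and 4 lists of other T cell, NK cell and B cell precursor genes, dotted lines a 2-fold change, and the cross the median of all genes (0.10 and 0.31). Among the marked genes, Cd3d, Cd28, Ctla4 and Icos lie to the lower left, with ratios below −1 at both times, and Il7r lies to the upper right of the cross.

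Of 22 genes of signalling close to the receptor, 20 reached 1 RPKM, and 3 were at least 2-fold lower at 3 days, with 0 higher, beside 2.41% and 4.08% of all genes. Lat, the adaptor that ZAP-70 phosphorylates, went from 12.5 to 5.87 and 7.11 RPKM, at −1.08 (−1.42 to −0.76) and −0.80 (−1.12 to −0.50), and with the length trend removed it was −0.81 at 3 days. Skap1, an adaptor of integrin activation, was −1.27 at 3 days and −0.36 at 5 days, and Txk, a Tec family kinase, −1.19 and −0.85. At 5 days 0 were at least 2-fold lower and 2 higher, a share below the 15.5% of all genes. Plcg1, a phospholipase used in many cell types, was 1.55, and 0.94 with the length trend removed. Nfatc2, a calcium-regulated factor, was 1.02, but 0.73 under TMM scaling and 0.23 with the trend removed. Vav1, Was and Lcp2, which myeloid cells also express, were the most abundant, with means of 54.1, 63.3 and 41.9 RPKM over the libraries and 3-day ratios of 0.12, 0.52 and 0.60. The 20 genes had medians of 0.06 and 0.07, which turned to −0.02 and −0.23 under TMM scaling and to −0.14 and −0.41 with the length trend removed.
Of 14 negative regulators of the receptor, none was 2-fold lower, and the 1 higher at 3 days and 2 at 5 days stand beside 4.08% and 15.5% of all genes. Cbl, a ubiquitin ligase found in most cells, was higher at both times, from 2.56 to 15.4 and 24.0 RPKM (2.54 and 3.18), and Ubash3a, a phosphatase-like protein of lymphocytes, was 1.01 at 5 days, but 0.71 under TMM scaling and 0.60 with the length trend removed. The abundant Ptpn6, Csk and Sla, at 181, 119 and 79.4 RPKM at 0 days, were 0.25, 0.17 and 0.30 at 3 days.

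Of 17 transcription factors of T cells, 14 reached 1 RPKM and none was changed 2-fold at 3 days. At 5 days Tcf7 and Lef1, partner factors of Wnt signalling in T cells and B cell precursors, were at least 2-fold higher, 2 of 14 beside 15.5% of all genes. Tcf7 went from 3.22 to 3.66 and 7.34 RPKM (1.16 at 5 days) and Lef1 from 7.36 to 11.3 and 15.1 (1.02), but under TMM scaling they were 0.86 and 0.72. Ets1, Id2 and Bach2, the most abundant of the list, were 0.23, −0.25 and 0.50 at 3 days. The list had medians of −0.23 and 0.19, the latter being −0.11 under TMM scaling and −0.30 with the length trend removed.
The same shares of all genes, 2.41% lower at 3 days and 5.91% at 5 days, apply to the next 2 lists. Among 9 homing receptors, Cxcr6, a chemokine receptor of tissue T cells, was 2-fold lower at 3 days (−1.27), and Ccr7, which guides T cells and dendritic cells to lymph nodes, at 5 days. Ccr7 went from 66.5 to 36.2 and 12.8 RPKM, with log2 ratios of −0.88 (−0.99 to −0.77) and −2.37 (−2.53 to −2.22). S1pr1, an egress receptor, was −0.08 and −0.82.
Of 12 genes around IL-7 signalling, 10 reached 1 RPKM, and 1, Tslp, was 2-fold lower at 5 days, on 18, 10 and 5 reads. Il2rg, the shared gamma chain that pairs with the IL-7 receptor, was −0.29 and −0.08, Jak1 0.67 and 0.52, and Mcl1, a survival gene of many blood cells, −0.23 and −0.99. Ptcra, the pre-T alpha chain of thymocytes, had 32, 17 and 20 reads. The 9 names searched for constant regions of the receptor itself had no row in the tables and are not analysed here.

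Markers of other cells that could carry these transcripts were counted in the same libraries. Of 14 NK cell markers, 13 reached 1 RPKM, with medians of −0.68 and −0.41 against 0 days. At 3 days 4 were at least 2-fold lower, Gzma (−1.17), Klra8 (−1.07), Klrd1 (−1.05) and Ccl5 (−1.01), and at 5 days 0, beside 2.41% and 5.91% of all genes. With the length trend removed these 4 were −0.74, −0.77, −0.62 and −0.44. The 13 markers had a median of 0.53 between 3 and 5 days (0.31 under TMM scaling, 0.27 with the length trend removed, and 0.25 over all genes). Cd247, Zap70 and Lck, which NK cells share, were 0.77, 0.59 and 0.42. Under TMM scaling they were 0.56, 0.38 and 0.20, and with the length trend removed 0.50, 0.35 and 0.18. Of the other members, Cd3e, Il7r and Cd4 were 0.47, 0.40 and 0.33 on the deposited scale. Cd8a, Cd8b1 and Cd3g were 0.11, 0.05 and 0.04, and Cd3d was −0.61. The summed RPKM of the NK list was 1187, 1042 and 806, of which Tyrobp, also a myeloid gene, held 889, 874 and 560. Nkg7, an abundant granule gene of NK and cytotoxic T cells, went from 120 to 74.7 and 114 RPKM.
Beside Il7r, the 14 markers of B cell precursors had summed RPKM of 2519, 2011 and 1864, mostly Cd79a, Cd79b and Vpreb3. The median log2 ratio of the 14 was below 0, at −0.34 on day 3 and −0.35 on day 5. Under TMM scaling it was −0.42 and −0.66, and with the length trend removed −0.04 and −0.42. Rag1, a recombinase gene of developing lymphocytes, went from 17.9 to 42.4 and 41.4 RPKM (1.24 and 1.21), and Rag2 from 4.20 to 6.56 and 9.69 (0.63 and 1.19). Under TMM scaling the 5-day values were 0.90 and 0.89, and with the length trend removed Rag1 was 0.75 and 0.42 and Rag2 0.41 and 0.69. Cd79a was −0.43 and −0.64. Vpreb2, whose reads may be shared with its near copy Vpreb1, was 2-fold lower at 5 days, on 37, 22 and 12 reads, and was −0.84 with the length trend removed. The 1 of 14 higher at 3 days and 2 at 5 days, and the 1 lower at 5 days, stand beside 4.08%, 15.5% and 5.91% of all genes. Beside Cd4, the 12 dendritic cell markers had summed RPKM of 868, 606 and 621. Of 10 that reached 1 RPKM, Bst2 alone was 2-fold lower, at −1.23 and −1.24, or −0.80 and −0.92 with the length trend removed, and the abundant Ly6d and Irf8 were −0.41 and 0.03 at 3 days. The 10 mature B cell markers, 9 of them above 1 RPKM, had 0 changed 2-fold and summed RPKM of 974, 972 and 861, led by Cd37, Spib and Fcrla. The part of these cells in the values of the 10 genes was not tested.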

How the data were processed

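The authors prepared poly(A) libraries with a TruSeq RNA kit, which does not mark strand, sequenced them on an Illumina HiSeq instrument and quantified them with Cufflinks. The aligner and the gene annotation are not given in the sources used here, and the labels list mm8. The 3 deposited tables each compare 2 libraries. They hold whole read counts, which the authors left unscaled, the gene length, and the RPKM that the authors computed from them. Recomputed RPKM equalled the deposited RPKM within 0.1%, apart from 18 rows at 0 days and 14 at 3 days. Genes without reads are listed at 0.01 RPKM and were set to 0. The authors' log2 ratios, P values and false discovery rates were not used.

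Of repeated names, only the most abundant row by RPKM entered. Changes were log2 ratios of RPKM + 0.1, and genes with at least 1 RPKM in either library were counted at a limit of 2-fold. Count models with replicates could not be fitted to 1 library per time point. TMM factors came from edgeR 4.0.16 and median-of-ratios factors from DESeq2 1.42.0 (R 4.3.3), and the length trend is a lowess fit with a span of 0.3 (statsmodels 0.14.6, Python 3.11.15). The 2-fold call, the counting interval and the removal of a length trend were tested on simulated Poisson counts, which hold no spread between mice. The scaling factors, sums and likeness were not tested in this way.

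The genes, lists and alternatives were chosen with earlier results of these data known, the classes of gene length after the values were seen. Named from each list were genes changed 2-fold against 0 days and the 3 most abundant, and from the lists of cells far from T cells only some. A gene that this rule names is not reported here. Likeness was the Euclidean distance of the ratios at 3 and 5 days.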

Additional observations from a re-analysis of the deposited data

How the results depend on the processing

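No paired analysis was possible because each time point has 1 library, and no library could be left out of a comparison. For the 10 T cell genes, no alternative run reversed the sign of their median or of a gene called 2-fold. The other gene lists were recomputed only under TMM scaling and with the length trend removed. The median of the 10 genes on day 3, reported as −0.67, ranged from −0.77 to −0.55 over the alternatives run. On day 5, against −0.36, TMM gave −0.66, median-of-ratios scaling −0.65 and the 8 genes with at least 5 RPKM −0.60. Between 3 and 5 days, against 0.36, it was 0.14 and 0.15 under the same scalings and 0.076 with the length trend removed. Against 2 genes at least 2-fold lower at 3 days, there was 1 with a pseudocount of 1, 1 with the length trend removed and 0 at a limit of 4-fold. Against 1 gene at 5 days, each of TMM, median-of-ratios scaling and scaling by reads outside the 100 most abundant genes gave 3, and there were 0 at a limit of 4-fold on the scale with the pseudocount. The sums of the 10 genes, 267 and 304 CPM at 0 and 5 days, were 292 and 269 under TMM scaling, which turned the order of these libraries. Without Il7r and Cd4 they were 120, 67.4 and 81.8 at 0, 3 and 5 days.

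Counts over all genes moved more. At 3 days, against 273 lower and 462 higher genes, there were 120 and 190 with a pseudocount of 1, 118 and 236 with a minimum of 5 RPKM, 688 and 830 with none, and 33 and 36 at 4-fold. With the length trend removed 293 were higher. At 5 days, against 680 and 1786, there were 1118 and 862 under median-of-ratios scaling, 186 and 153 at 4-fold, 421 lower with a minimum of 5 RPKM and 1180 lower with none. Higher genes then numbered 1140 with a pseudocount of 1, 1098 when the top 100 genes were left out of the scaling and 581 after removal of the length trend. Between 3 and 5 days, against 393 and 222, there were 105 and 13 at 4-fold, 258 and 94 with a minimum of 5 RPKM and 717 and 578 with none. Higher genes were 52 with a pseudocount of 1, 74 by TMM, 77 by median-of-ratios, 122 when the top 100 genes were left out of the scaling and 75 after removal of the length trend. For genes near 2 RPKM, such as Cd247 and Zap70, the counts of 65 to 117 reads limit what can be seen.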

Other observations

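Of 14 macrophage and monocyte markers, 2 were at least 2-fold higher at 3 days, Siglec1 (1.48) and Mertk (1.02, but 0.95 under TMM scaling), and 5 at 5 days, of which Cd68 was 0.97 under TMM scaling. Of all genes, 4.08% and 15.5% were higher at these times, and the 1786 genes behind the latter share became 832 under TMM scaling. Ccr2, the receptor by which monocytes leave the marrow, went from 45.1 to 85.8 and 142 RPKM, and Csf1r, the receptor of their growth factor, from 26.7 to 49.6 and 85.3. Of 12 late neutrophil markers, 11 reached 1 RPKM. None was changed 2-fold at 3 days and all 11 were at least 2-fold lower at 5 days, beside 5.91% of all genes, with summed RPKM of 150052, 116124 and 41382, although Ngp was −0.95 with the length trend removed. Of 10 erythroid markers 2 were lower at 5 days, the globin genes Hba-a1 (−1.92) and Hbb-b1 (−1.69). Their share in the values of the T cell genes was not tested.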
